A study of Mus musculus with 19 samples.

Results

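Reads from 6 mitochondrial tRNA genes of mouse sperm were followed across 19 small RNA libraries: mt-Tf (tRNA-Phe), mt-Tv (tRNA-Val), mt-Tl1 (tRNA-Leu), mt-Ti (tRNA-Ile), mt-Tq (tRNA-Gln) and mt-Tm (tRNA-Met). A read was counted for one of them when it matched the mature tRNA with its CCA tail, in the sense direction and with at most 1 mismatch. This rule gave 134170 reads in 5675 distinct sequences, or 5.66% of the 2370279 reads of all 22 mitochondrial tRNAs, of which mt-Th (tRNA-His) alone gave 84.5%. By library the share was 0.382% to 5.37% in PANDORA-seq and 5.34% to 15.6% in traditional libraries. The 6 genes were among 5206 small RNA genes with reads. The libraries came from sperm of C57BL/6J wild-type males that received corn oil (control) or dicyclohexyl phthalate (DCHP), a plasticizer, by daily oral gavage for 4 weeks from 8 weeks of age. Each group was sequenced by traditional small RNA-seq (5 control and 5 DCHP libraries) and by PANDORA-seq (4 control and 5 DCHP libraries), in which the RNA is first treated with the demethylase AlkB and the end-repair enzyme T4PNK. Both methods started from RNA cut from a gel at 15 to 50 nt, and the reads analysed were 15 to 45 nt long. In bulk samples such as these, fewer cells of a type and less RNA per cell cannot be told apart. The study describes its libraries as biological replicates of mice and the labels do not say whether animals were pooled, so the p-values below measure the spread between these libraries. No marker mRNA of sperm was tested in these small RNA data.

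Mitochondrial DNA is transcribed into long precursors in which tRNAs punctuate the rRNAs and mRNAs. RNase P cuts at the 5′ end of each tRNA and RNase Z at its 3′ end, so that excising a tRNA also frees the RNAs beside it, and the tail CCA is then added by a nucleotidyltransferase, since the mitochondrial genome does not encode it. Many mitochondrial tRNAs carry a methylated A or G at base 9, a kind of mark that can stop or mislead reverse transcription and that AlkB can remove. T4PNK turns 3′ phosphates and 5′ hydroxyls, which block adapter ligation, into ends that can be ligated.

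On the GRCm38 mitochondrial chromosome (MT), mt-Tf (ENSMUSG00000064336.1) lies at bases 1 to 68, just before the 12S rRNA gene mt-Rnr1 (70 to 1024). Between mt-Rnr1 and the 16S rRNA gene mt-Rnr2 (1094 to 2675) lies mt-Tv (ENSMUSG00000064338.1) at 1025 to 1093. Next comes mt-Tl1 (ENSMUSG00000064340.1) at 2676 to 2750, with no base between it and either mt-Rnr2 or mt-Nd1 (2751 to 3707), which encodes a complex I subunit. Overlapping the end of mt-Nd1, mt-Ti (ENSMUSG00000064342.1) spans 3706 to 3774, and mt-Tm (ENSMUSG00000064344.1), at 3845 to 3913, adjoins mt-Nd2 (3914 to 4951). The minus strand carries mt-Tq (ENSMUSG00000064343.1) at 3772 to 3842, and the other 5 tRNAs are on the plus strand. Neither mt-Tq nor mt-Tm touches an rRNA gene or mt-Nd1.

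The mature sequences, from the GENCODE annotation of that build with the tail added, are shown because every fragment end below is a position in one of them. Capitals mark the anticodon, and bases are counted from 1 at the 5′ end, so that the final A of the tail is base 71 in mt-Tf, base 78 in mt-Tl1, base 74 in mt-Tq and base 72 in the other three.
mt-Tf: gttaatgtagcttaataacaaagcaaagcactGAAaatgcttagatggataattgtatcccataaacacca
mt-Tv: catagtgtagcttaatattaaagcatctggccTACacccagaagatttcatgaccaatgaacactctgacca
mt-Tl1: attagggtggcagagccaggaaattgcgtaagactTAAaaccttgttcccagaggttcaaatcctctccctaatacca
mt-Ti: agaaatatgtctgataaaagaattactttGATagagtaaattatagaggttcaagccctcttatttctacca
mt-Tq: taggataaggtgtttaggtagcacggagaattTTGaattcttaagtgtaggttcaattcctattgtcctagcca
mt-Tm: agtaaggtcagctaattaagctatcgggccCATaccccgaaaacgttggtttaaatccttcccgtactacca

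The fragment with the highest mean RPM (reads per 1000000 reads) over the libraries of a method is shown for each tRNA, as an example of the ends described below. Here the bases of the CCA tail are also in capitals. For traditional mt-Tm the runner-up, which had more reads, is shown as well.
mt-Tq, both methods, bases 1 to 42: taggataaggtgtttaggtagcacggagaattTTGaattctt
mt-Tv, PANDORA-seq, bases 46 to 70: tttcatgaccaatgaacactctgaC
mt-Tv, traditional, bases 56 to 70: aatgaacactctgaC
mt-Ti, PANDORA-seq, bases 53 to 71: aagccctcttatttctaCC
mt-Ti, traditional, bases 1 to 32: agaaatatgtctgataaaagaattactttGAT
mt-Tl1, PANDORA-seq, bases 59 to 76: aaatcctctccctaataC
mt-Tl1, traditional, bases 1 to 22 with 1 mismatch (A22C): attagggtggcagagccaggac
mt-Tm, both methods, bases 32 to 70: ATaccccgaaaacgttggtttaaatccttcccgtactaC
mt-Tm, traditional, bases 1 to 45: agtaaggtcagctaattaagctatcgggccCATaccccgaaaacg
mt-Tf, traditional, bases 52 to 70: attgtatcccataaacaCC

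Total reads per library ran from 21588335 to 56506344. The 6 tRNAs together received 367 to 1086 reads in a PANDORA-seq library and 5451 to 23509 in a traditional one. A library with 0 reads of a gene could still hold up to 3 counts, or 0.0531 to 0.139 RPM depending on the library. Reads were not collapsed to molecules, so this limit and the intervals below cover counting error only. The study expressed small RNAs relative to total miRNA. The total used here, of reads matching miRNA hairpins, differed strongly between the methods. It ran from 283683 to 758477 reads in PANDORA-seq and from 1119719 to 8830574 in traditional libraries. The highest value, from the second traditional control library, was 16.9% of its reads, against 4.55% to 10.5% in the other traditional libraries.

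The 6 tRNAs differed widely in level, and mt-Tq led under both methods. Per 100 bases of mature tRNA, mt-Tq averaged 337 ± 111 RPM (SD, n = 10) in traditional libraries, followed by mt-Tv at 81.6 ± 28.2, mt-Ti at 18.3 ± 6.24, mt-Tm at 14.3 ± 5.93, mt-Tl1 at 8.59 ± 4.45 and mt-Tf at 1.19 ± 1.38. Each of these was above the next in all 10 libraries, except that mt-Ti was above mt-Tm in 7 of 10. In PANDORA-seq the order was mt-Tq at 13.6 ± 2.79 RPM per 100 bases (SD, n = 9), mt-Tv at 10.99 ± 5.78, mt-Tl1 at 0.864 ± 0.360, mt-Tm at 0.844 ± 0.241, mt-Ti at 0.756 ± 0.351 and mt-Tf at 0.0359 ± 0.0293. There mt-Tq exceeded mt-Tv in 7 of 9 libraries, while mt-Tl1, mt-Tm and mt-Ti lay within their spread of each other (mt-Tl1 above mt-Tm in 4 of 9 and mt-Tm above mt-Ti in 6 of 9). Of the reads of the 6 tRNAs, mt-Tq made up 72.0% ± 9.99 in traditional libraries and 53.0% ± 12.6 in PANDORA-seq, and mt-Tv 18.7% ± 9.31 and 37.7% ± 12.6.

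**Figure D1:**
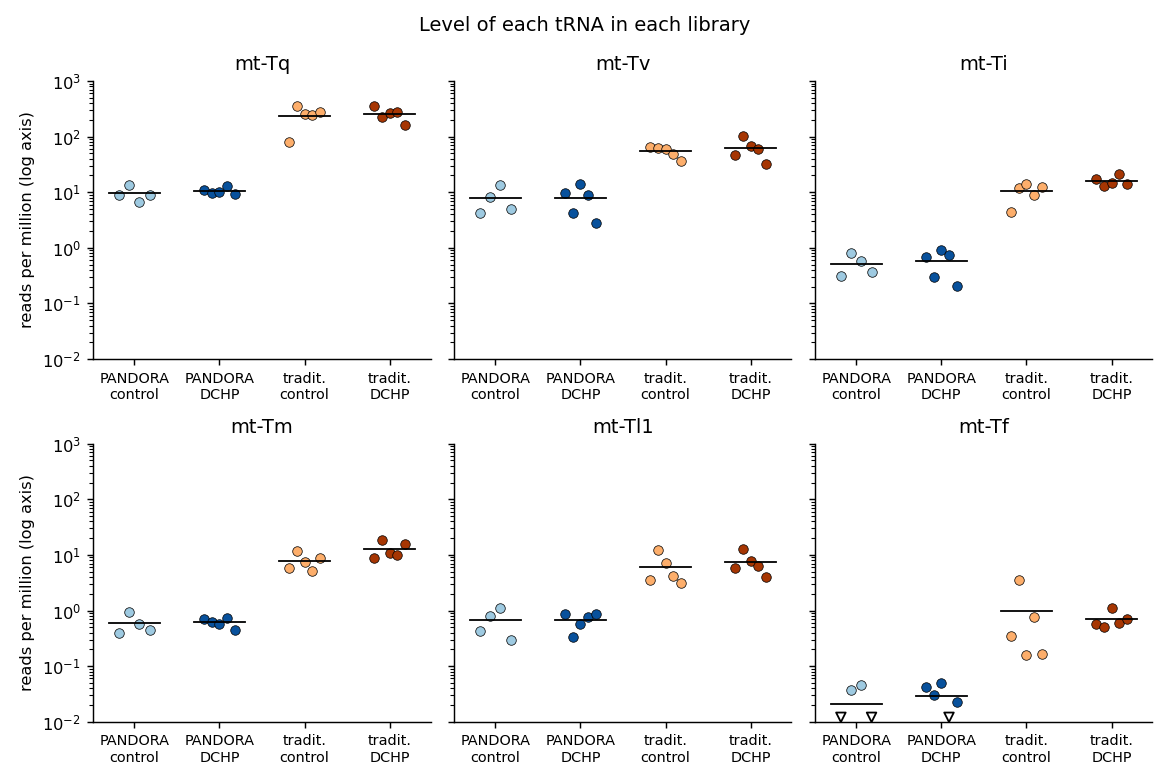
Level in RPM of each of the 6 tRNAs in every library, on a log axis, by group (4 PANDORA-seq control, 5 PANDORA-seq DCHP, 5 traditional control and 5 traditional DCHP libraries); triangles mark libraries with 0 reads. For each tRNA the traditional libraries lie above the PANDORA-seq libraries, while the control and DCHP libraries of a method overlap.

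For mt-Tq, which decodes glutamine codons, PANDORA-seq gave 9.004, 13.5, 6.78 and 8.95 RPM in the 4 control libraries. The 5 DCHP libraries of that method gave 10.9, 9.59, 10.04, 12.7 and 9.18 RPM. Traditional sequencing gave 79.8, 349, 256, 240.3 and 274 RPM in control and 357, 226, 271, 280.4 and 159 RPM in DCHP libraries. The methods did not overlap, the lowest traditional library being the first control at 79.8 RPM. The control and DCHP values of each method overlapped.

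For mt-Tv, the valine tRNA that in mammals can also take the place of 5S rRNA in the mitochondrial ribosome, PANDORA-seq gave 4.29, 8.36, 13.6 and 5.06 RPM in control and 9.72, 4.23, 14.3, 9.01 and 2.74 RPM in DCHP libraries. Traditional sequencing gave 66.1, 63.0, 61.0, 48.6 and 36.4 RPM in control and 47.1, 104.6, 69.1, 58.7 and 32.6 RPM in DCHP libraries. Again the methods did not overlap, and the DCHP libraries spanned a wider range than the controls under both methods.

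The remaining tRNAs were scarcer. In PANDORA-seq libraries, mt-Ti had 8 to 36 reads, mt-Tm 10 to 34, mt-Tl1 11 to 49 and mt-Tf 0 to 2. In traditional libraries, mt-Ti ranged from 4.41 to 21.2 RPM, mt-Tm from 5.11 to 18.9 RPM and mt-Tl1 from 3.10 to 12.8 RPM. The initiator and elongator of methionine in mitochondria are both served by mt-Tm. Reads of mt-Tf, the phenylalanine tRNA at the head of the rRNA transcription unit, came to 9 in all of PANDORA-seq, with 0 in 3 of its 9 libraries. In traditional libraries mt-Tf gave 0.352, 3.51, 0.161, 0.764 and 0.165 RPM in control and 0.581, 0.510, 1.11, 0.591 and 0.711 RPM in DCHP. The second traditional control library thus held 183 of the 357 traditional mt-Tf reads.

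PANDORA-seq against traditional sequencing asks what the enzyme treatment changes in the reads that are captured. The comparison was made with edgeR's quasi-likelihood test across all small RNA genes, with the miRNA total as library size, as the study normalised, and calls needed a change of more than 2-fold at an adjusted p (Benjamini-Hochberg) under 0.1, the study's limits. In control sperm 5 tRNAs were tested. Leaving mt-Ti aside, those called lower in PANDORA-seq were mt-Tq (log2 fold change -2.15, SE 0.54, adjusted p = 0.000147) and mt-Tm (-1.23, SE 0.55, adjusted p = 0.0355). Of the 1099 genes tested, 35.5% were called lower, 46.8% higher and 82.3% in either direction. In the PANDORA-seq control libraries mt-Ti had 8, 21, 25 and 21 reads. It thus passed the filter (at least 10 reads in at least 4 libraries) only with the traditional libraries, and its value is given as a description. Values of mt-Tl1 (-0.53, SE 0.54, adjusted p = 0.363) and mt-Tv (-0.43, SE 0.50, adjusted p = 0.421) did not pass, and mt-Tf had too few reads to be tested. The median of all genes was 0.76 and that of the tRNAs tested, mt-Ti included, -1.23 on the log2 scale.

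In DCHP-exposed sperm, 4 of the 5 tRNAs other than mt-Tf were lower in PANDORA-seq per miRNA read, beside 38.9% of the 1220 genes tested called lower, 41.4% higher and 80.3% in either direction. They were mt-Ti (log2 fold change -2.32, SE 0.41, adjusted p = 0.000124), mt-Tq (-2.19, SE 0.37, adjusted p = 8.76e-05), mt-Tm (-1.86, SE 0.35, adjusted p = 0.000245) and mt-Tl1 (-1.03, SE 0.45, adjusted p = 0.0450). The value of mt-Tv again did not pass (-0.58, SE 0.49, adjusted p = 0.284). With 0 to 2 reads in each PANDORA-seq DCHP library, mt-Tf passed the filter on low counts only through the traditional libraries, so that it had to be lower, and its value (-1.95, SE 0.52) is given as a description. The median without it was -1.86 and that of all genes 0.14. Same-numbered libraries of the 2 methods varied together, and with the replicate number as a block mt-Tl1 no longer passed (-0.80, adjusted p = 0.140 by edgeR's quasi-likelihood test).

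These method differences depended on the library size. Without correction for miRNA, as RPM, every tRNA was lower in every PANDORA-seq library than in any traditional library of the same exposure, by 7.05-fold (mt-Tv) to 25.1-fold (mt-Tq) between the means of the control libraries, leaving mt-Tf aside. When only the 424 miRNA hairpins whose reads were mostly 20 to 24 nt long set the library size, of 1980 hairpins with reads, all 5 tRNAs tested in control sperm and all 6 in DCHP-exposed sperm were instead higher in PANDORA-seq (log2 2.35 to 4.19). That total was 7922 to 52419 reads in PANDORA-seq and 1027649 to 8657927 in traditional libraries. With exact matches alone, 1 tRNA was called in control and 0 in DCHP-exposed sperm, and mt-Tv and mt-Tl1 turned positive in both. A direction between the methods therefore holds for a stated library size only, whereas the shares of reads within a tRNA, below, do not use one.

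**Figure D2:**
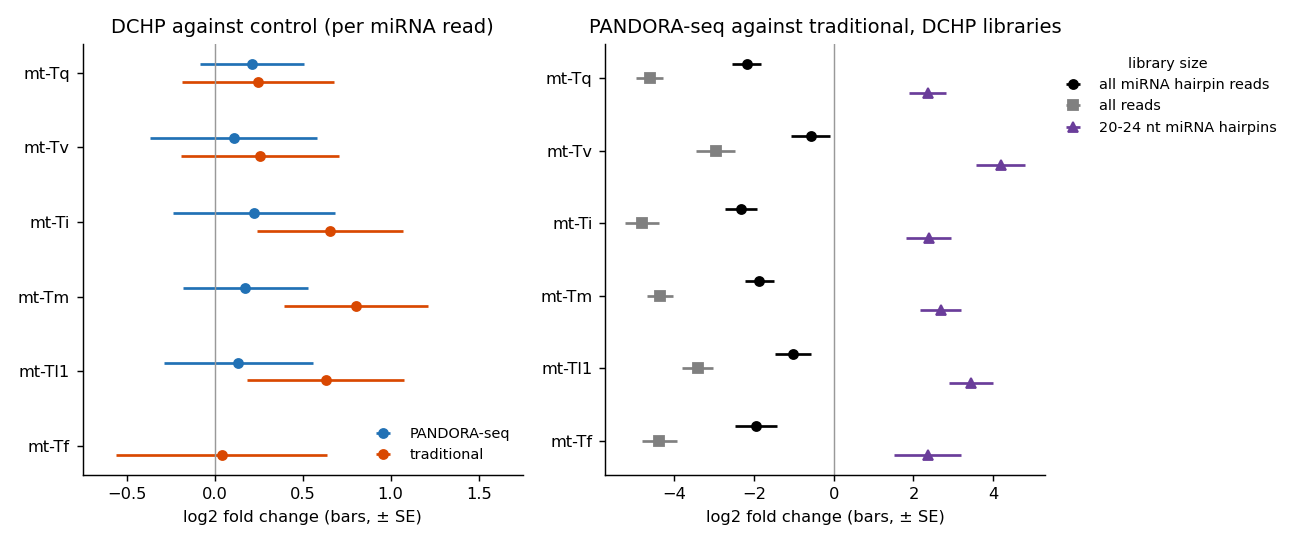
Fitted log2 fold changes with SE bars for each tRNA. Left, DCHP against control per miRNA read, where the PANDORA-seq values lie between 0.11 and 0.22 and the traditional values between 0.04 and 0.80. Right, PANDORA-seq against traditional in the DCHP libraries under 3 library sizes. All 6 tRNAs are below 0 per miRNA read and per total read and above 0 per read of hairpins with mostly 20 to 24 nt reads. Of these, mt-Tf passed the filter on low counts only through the traditional libraries, so its values are a description.

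Where the reads lay on a tRNA also differed between the methods, most plainly for mt-Tq. Traditional reads of mt-Tq were almost all 5′ fragments, and those of PANDORA-seq were not. In traditional libraries, 93.5%, 96.1%, 94.99%, 94.9% and 95.3% of mt-Tq reads started at base 1 in control and 96.0%, 94.4%, 94.5%, 94.3% and 94.4% in DCHP. In PANDORA-seq, the shares were 23.6%, 39.9%, 16.4% and 25.3% in control and 28.7%, 50.0%, 28.3%, 39.2% and 45.4% in DCHP. No PANDORA-seq library exceeded 50.0% and no traditional library fell below 93.5%.

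In the 5 tRNAs with enough reads under both methods (all but mt-Tf), 10 of 17 fragment measures (share starting at base 1, share with the full CCA, share ending 1 to 3 bases before its last A, mean read length, and share mismatched at base 9) differed between the methods in control sperm and 6 of 19 in DCHP-exposed sperm, at an adjusted p below 0.05 by a two-sided exact permutation test. Among the measures of all 22 mitochondrial tRNAs the same was true of 35.2% and 37.1%. Every call had the smallest p these group sizes allow, 0.00794, and an adjusted p of 0.0434. Paired by replicate number, the exact sign-flip test called 0, and it cannot go below p = 0.125 with 4 pairs or 0.0625 with 5. With any 1 library left out the count was 0 in control sperm, where the smallest possible p then rises to 0.0179 or 0.0286. In DCHP-exposed sperm, where it stays at 0.00794, the count was 0 without PANDORA-seq DCHP replicate 1, 2, 4 or 5 (smallest adjusted p 0.0519 to 0.0528 by the exact permutation test) and 5 without any other library.

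In control sperm, the share starting at base 1 was lower in PANDORA-seq for mt-Tq (26.3% ± 9.88 against 94.96% ± 0.922), mt-Tl1 (9.25% ± 10.4 against 62.6% ± 14.1), mt-Ti (6.76% ± 5.996 against 27.8% ± 8.01) and mt-Tm (10.5% ± 5.0 against 31.5% ± 6.95; SD, n = 4 and 5 throughout). In the same 4 tRNAs the share ending within 3 bases before the last A was higher: 9.76% ± 3.08 against 0.315% ± 0.173 for mt-Tq, 45.1% ± 14.4 against 6.90% ± 3.89 for mt-Tl1, 40.2% ± 9.13 against 2.58% ± 2.53 for mt-Ti and 50.5% ± 1.91 against 18.01% ± 9.41 for mt-Tm. The ranges of the methods did not overlap for any of these. With reads of at most 45 nt, no read could both start at base 1 and end near the tail. The 2 shares of a tRNA are therefore not independent, although they were counted as separate measures above. For mt-Tv, whose reads ended near the tail under both methods (77.0% ± 8.19 against 84.5% ± 4.35), that share did not pass (exact permutation p = 0.111, adjusted p = 0.301).

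In DCHP-exposed sperm, 3 of those 8 shares passed again, namely base 1 starts of mt-Tq (38.3% ± 9.75 against 94.7% ± 0.691) and mt-Tl1 (3.70% ± 3.39 against 57.6% ± 23.1) and near-tail ends of mt-Tq (6.93% ± 0.642 against 0.486% ± 0.448). Base 1 starts of mt-Tv were also lower in PANDORA-seq there (2.39% ± 1.45 against 8.14% ± 3.36; SD, n = 5 each). Near-tail ends of mt-Tl1 (38.9% ± 16.1 against 15.2% ± 8.33) overlapped and did not pass (exact permutation p = 0.0317, adjusted p = 0.128). The shares of mt-Ti and mt-Tm also lay the same way between the means but overlapped between the methods, on 9 to 36 PANDORA-seq reads a library. Whether these method differences themselves differed between control and DCHP was not tested.

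**Figure D3:**
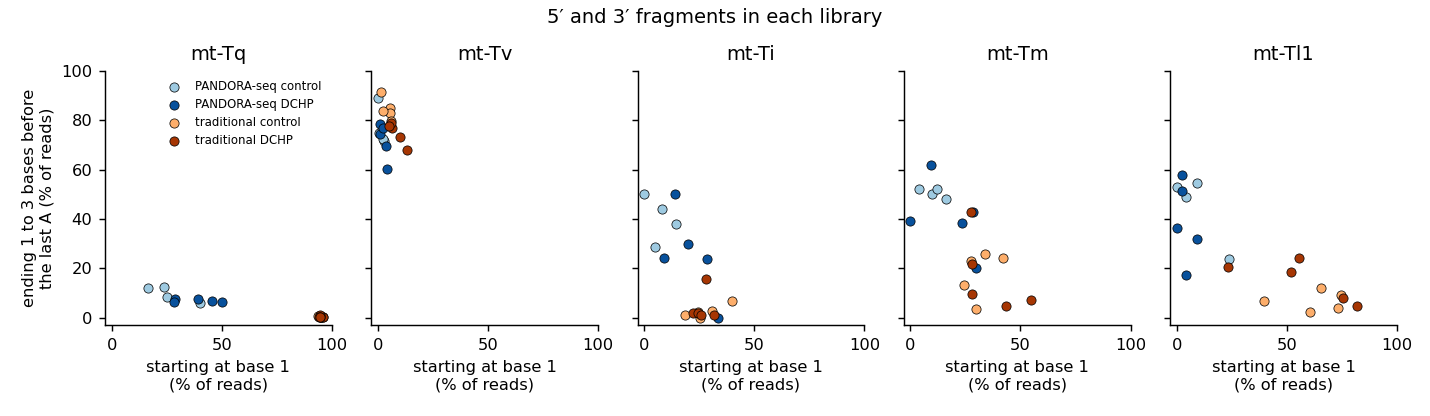
For 5 tRNAs and every library, the percent of reads that start at base 1 (horizontal) against the percent that end 1 to 3 bases before the last A of the tail (vertical), by method and exposure. The traditional mt-Tq libraries crowd at 93.5% to 96.1% base 1 starts, the PANDORA-seq libraries spread from 16.4% to 50.0%, and mt-Tv of both methods sits at high near-tail shares.

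Mean read length also differed for some of the tRNAs. In control sperm mt-Tq reads averaged 31.6 ± 2.16 nt in PANDORA-seq and 38.05 ± 0.4996 nt in traditional libraries, and mt-Tv reads 24.5 ± 1.29 and 21.01 ± 0.642 nt. In DCHP-exposed sperm mt-Tq averaged 33.3 ± 1.76 and 37.1 ± 0.625 nt, and mt-Tl1 31.9 ± 3.85 and 23.5 ± 3.27 nt. These 4 differences had an exact permutation p of 0.00794 and an adjusted p of 0.0434. The lengths of mt-Tl1 in control (30.01 ± 1.71 and 23.8 ± 2.41 nt) and of mt-Tv in DCHP-exposed sperm (26.05 ± 2.39 and 21.8 ± 1.16 nt) lay the same way and did not pass (exact permutation test, adjusted p = 0.0687 each). Those of mt-Ti and mt-Tm overlapped between the methods and did not pass either, and for mt-Ti the difference was -2.15 nt in control and 2.0 nt in DCHP-exposed sperm.

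Ends within mt-Tq were sharp. Over the libraries of a method together, base 42, which lies 7 bases past the anticodon, ended 57.8% of traditional and 36.7% of PANDORA-seq mt-Tq reads. The single 42 nt sequence shown above accounted for 44523 traditional reads, or 47.0% of the method's mt-Tq reads, and for 16.8% of those in PANDORA-seq. Apart from base 1, PANDORA-seq mt-Tq reads began most often at base 31 (13.9% of all), in the anticodon loop, and at base 23 (8.79% of all). In traditional libraries those starts held 0.166% ± 0.0604 and 0.391% ± 0.292 of control mt-Tq reads (SD, n = 5).

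Reads of mt-Tv came from its 3′ end. Base 71, the second C of the tail, ended 45.4% of traditional reads and base 70, the first C, 32.4%, while in PANDORA-seq the order was base 70 (45.3%) and then base 71 (31.8%). PANDORA-seq reads started most often at base 46 (22.1%) and base 50 (19.8%), and traditional reads at bases 56 (12.6%), 51 (10.5%) and 50 (9.70%). Reads of 15 to 18 nt made up 39.7% of mt-Tv reads in traditional libraries and 14.8% in PANDORA-seq.

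In mt-Ti, traditional reads started at base 10 (40.3%), next to base 9, or at base 1 (27.1%), and ended inside or just past the anticodon, at base 32 (25.5%) or base 36 (15.5%). PANDORA-seq reads of mt-Ti started instead at base 53 (34.2%) and ended at base 51 (23.4%) or base 71 (19.02%). Traditional mt-Tl1 reads began at base 1 (55.4%) and ended at bases 22 (12.6%) and 21 (11.9%), well before the anticodon. The sequence shown above, with its mismatch at base 22, had 218 reads and the exact sequence of bases 1 to 21 had 225. Those of PANDORA-seq began at bases 35 (23.6%), 59 (17.6%) and 24 (16.3%) and ended at bases 76 (24.9%) and 77 (17.2%), the tail's Cs. Reads of both mt-Ti and mt-Tl1 thus lay mainly on the 5′ side in traditional libraries and mainly in the middle and on the 3′ side in PANDORA-seq. A mismatched last base also counted as an end in these shares. Of traditional reads, 317 ended at base 22 of mt-Tl1 and 759 at base 36 of mt-Ti. Mismatches at these bases numbered 226 (96.9% at the read's last base) and 268 (all at the last base).

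Reads of mt-Tm were split in a similar way, with less contrast. Traditional reads began at bases 1 (36.1%), 9 (16.3%) and 10 (10.7%), and PANDORA-seq reads at bases 1 (15.2%), 10 (14.7%) and 32 (13.2%), the middle base of the anticodon. Base 70 ended 35.8% of PANDORA-seq and 12.1% of traditional reads. The 39 nt sequence from base 32 to base 70 shown above had the highest mean RPM under both methods and made up 6.86% of PANDORA-seq and 3.15% of traditional mt-Tm reads. In traditional libraries the sequence from base 1 to base 45 had more reads (146 against 115), at a mean of 0.410 against 0.421 RPM. Its 45 nt are the greatest length analysed, so longer fragments from base 1 could not be seen. Traditional mt-Tf reads ended at base 70 (59.9%) or base 69 (22.1%) and started at bases 49 (19.3%), 52 (17.9%) and 51 (15.97%), in a pool where 1 control library gave 183 of 357 reads. Averaged over libraries, the ends at bases 70 and 69 were 46.8% ± 20.2 and 41.5% ± 22.8 in control and 60.1% ± 26.8 and 23.2% ± 29.3 in DCHP libraries (SD, n = 5 each).

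**Figure D4:**
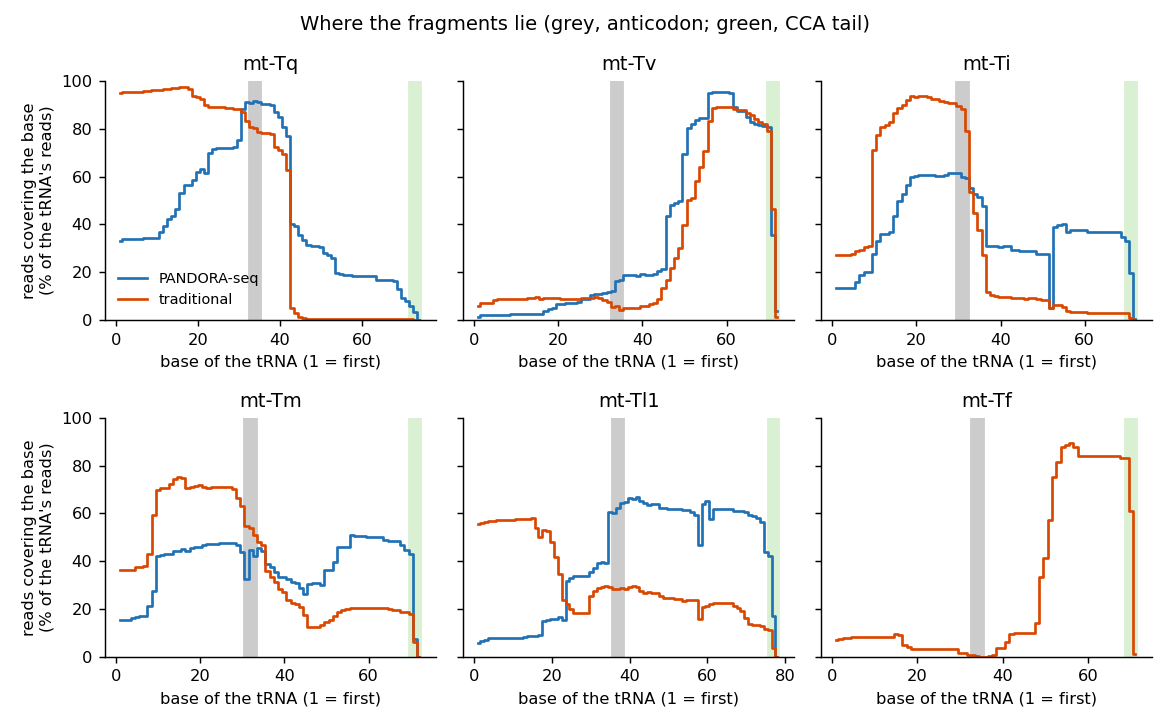
Percent of a tRNA's reads that cover each base, from base 1 to the last A, by method, with the anticodon shaded grey and the CCA tail green; mt-Tf of PANDORA-seq, with 9 reads, is not drawn. Coverage of mt-Tq, mt-Ti and mt-Tl1 is concentrated on the 5′ side in traditional libraries and shifts to the middle and the 3′ side in PANDORA-seq, while mt-Tv is covered near its 3′ end under both methods.

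Most reads near the 3′ end stopped short of the last A. Of the reads of the 6 tRNAs that ended in the tail or at the base before it, 107 of 2765 (3.87%) in PANDORA-seq and 269 of 19160 (1.40%) in traditional libraries ended in CCA, 39.3% and 54.5% in CC, 53.3% and 40.6% in C, and 3.47% under both methods had no tail base. In the other 16 mitochondrial tRNAs CCA closed 0.603% and 3.25% of such reads. Nearly all complete tails were on mt-Tv, with 105 of the 107 in PANDORA-seq and 264 of the 269 in traditional libraries. Ends were set by position with 1 mismatch allowed. At base 72 of mt-Tv, 9 of the 105 PANDORA-seq and 14 of the 264 traditional reads were mismatched, led by A72C. Those reads are counted as CCA ends here and below. As a share of all mt-Tv reads, CCA ends were 3.06% ± 1.90 in PANDORA-seq and 1.34% ± 0.446 in traditional control libraries (exact permutation p = 0.0714, adjusted p = 0.220), and 3.60% ± 2.33 and 1.32% ± 0.603 in DCHP libraries (exact permutation p = 0.0635, adjusted p = 0.209), which does not pass.

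**Figure D5:**
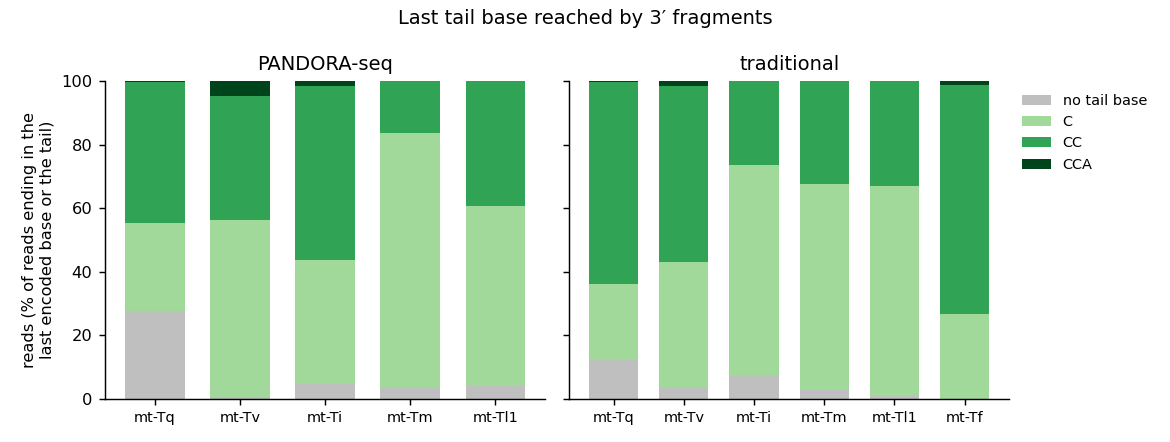
For each tRNA and method, the percent of reads ending in the tail or at the base before it that carry no tail base, C, CC or CCA (mt-Tf traditional only). C and CC make up most ends of every tRNA, and CCA is at most 4.70%, in PANDORA-seq mt-Tv.

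Reads with bases added beyond the mature ends were not counted above. PANDORA-seq held 160 mt-Tv reads that continued past CCA, 65 of them with a single C, and traditional libraries 112, of which 35 had a single C. In PANDORA-seq these outnumbered the 105 mt-Tv reads that ended in CCA. Counted together with them, complete tails were 11.1% of 2395 mt-Tv reads reaching the tail or the base before it in PANDORA-seq and 2.14% of 17552 in traditional libraries, and 9.59% and 1.99% over the 6 tRNAs. For mt-Tq, 27 traditional reads had a base before base 1, and in 26 it was C.

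Base 9, the site of methylation in many mitochondrial tRNAs, was mismatched in 9.08% of 1520 traditional mt-Ti reads that cover it (95% Clopper-Pearson interval 7.68% to 10.6%) and in 8.39% of 1442 such mt-Tl1 reads (7.01% to 9.94%). The pooled shares were 3.15% of 1902 reads in mt-Tv (2.42% to 4.04%), 1.65% of 90916 in mt-Tq (1.57% to 1.73%) and 0.139% of 2164 in mt-Tm (0.0286% to 0.405%). Single traditional libraries spread far beyond these intervals, from 1.88% to 16.05% in mt-Ti, 1.37% to 20.3% in mt-Tl1 and 0% to 7.66% in mt-Tv, so that these 3 tRNAs overlapped. In mt-Tq they ran from 1.33% to 2.11% and in mt-Tm from 0% to 0.474%. The reference base is G in mt-Ti, mt-Tl1 and mt-Tq, A in mt-Tv and C in mt-Tm, and the leading substitutions were G9A in mt-Ti and G9T in mt-Tl1. Only mt-Tq had enough PANDORA-seq reads over base 9 to compare the methods, and its shares were 0.942% ± 1.09 against 1.68% ± 0.286 in control (exact permutation p = 0.238, adjusted p = 0.470) and 1.67% ± 1.30 against 1.57% ± 0.193 in DCHP (exact permutation p = 0.881, adjusted p = 0.971). In PANDORA-seq, 0 of 37 mt-Ti reads over base 9 were mismatched, an interval that reaches 9.49%, and 1 of 18 mt-Tl1 reads was, so that no difference from traditional libraries was detectable at this depth.

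Apart from base 9, 14 positions were mismatched in at least 4% of the traditional reads over them, and in 8 of these most of the mismatches were at the last base of the read. The shares that follow count every substitution at a base, with the leading one named. Base 22 of mt-Tl1 (led by A22C) was mismatched in 25.9% of the reads over it, with 96.9% of these mismatches at the read's last base. The same held for base 36 of mt-Ti (20.04%, led by G36A, all at the last base) and for bases 44 (14.5%, led by A44C) and 45 (15.4%, led by G45A) of mt-Tq. Base 31 of mt-Tv (led by C31A) was mismatched in 15.8% of reads, and 41.4% of these mismatches were at the last base. The other 5 positions with at most 50% at the last base were base 28 of mt-Tl1, led by G28T (4.77% of reads mismatched, 0% of these at the last base), and bases 37 (10.6%, 31.1%), 34 (8.59%, 38.3%), 55 (6.86%, 10.5%) and 56 (6.38%, 50%) of mt-Ti. Reads with 1 mismatch made up 12.04% to 32.4% of a tRNA's reads in traditional libraries and 7.35% to 11.1% in PANDORA-seq.

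Reads that run on from a tRNA into its neighbour, with at least 5 bases on each side, would come from uncut precursors. At the border of mt-Tv and mt-Rnr2, 31 PANDORA-seq and 289 traditional reads spanned it, beside 2223 and 16844 reads with a tail base at mt-Tv's 3′ end. At the border of mt-Rnr2 and mt-Tl1, 8 and 60 reads spanned it, beside 13 and 1399 that started at base 1 of mt-Tl1. None spanned mt-Rnr1 into mt-Tv, mt-Tl1 into mt-Nd1 or mt-Nd1 into mt-Ti under either method, beside 1250 traditional reads starting at base 1 of mt-Tv and 1326 at base 1 of mt-Ti. Traditional reads spanning mt-Tf into mt-Rnr1 numbered 5 and those spanning mt-Tm into mt-Nd2 numbered 12, each in 2 libraries.

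Antisense reads were 0.118% to 6.04% of sense reads, the highest in traditional mt-Ti, apart from mt-Tf in PANDORA-seq with 2 antisense beside 9 sense reads. Short reads could also arise from nuclear transcripts with the same letters. This applied to 5.82% of traditional and 1.05% of PANDORA-seq mt-Tv reads, of at most 16 nt, and to 0% to 0.554% of the reads of the other 5 tRNAs, among 141730 nuclear transcripts searched.

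DCHP against control asks whether exposure of the sires changed these RNAs. Per miRNA read, no level passed the test under either method. By edgeR's quasi-likelihood test, 0 of the 5 tRNAs tested in PANDORA-seq and 0 of the 6 in traditional libraries were called, with 0% of the 714 and 1358 genes tested called. None of the tRNAs had an unadjusted p below 0.05 by edgeR, against 29 and 59 of all genes. DESeq2 with miRNA size factors also called 0, with 1 tRNA (traditional) below 0.05 unadjusted.

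In PANDORA-seq the log2 fold changes were 0.22 for mt-Ti, 0.21 for mt-Tq, 0.17 for mt-Tm, 0.13 for mt-Tl1 and 0.11 for mt-Tv, with SE from 0.29 to 0.47 and an edgeR adjusted p of 0.991 for each. In traditional libraries they were 0.80 for mt-Tm, 0.65 for mt-Ti, 0.63 for mt-Tl1, 0.26 for mt-Tv, 0.25 for mt-Tq and 0.04 for mt-Tf, with SE from 0.41 to 0.60 and edgeR adjusted p from 0.885 to 0.988. The median of the tRNAs tested was 0.17 and 0.44, that of all genes 0.10 and 0.31, and that of the other mitochondrial tRNAs 0.40 and 0.56. On simulated counts with 4-fold changes in 200 of 714 genes, the same fit called 97.0% of changed genes in the PANDORA-seq comparison. With 200 of 1358 genes changed, it called 74.5% in the traditional one. The adjustment is laxer when many genes change, and 0 were called in the real data. These rates therefore do not give the chance of calling a 4-fold change in these tRNAs. In the real PANDORA-seq libraries mt-Th was 4.07-fold higher in DCHP (log2 2.02, SE 0.61) and was not called. No tRNA passed the test of whether its DCHP response depended on the method (interaction term of edgeR, log2 -0.64 to 0.66, adjusted p = 0.9999).

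The largest of these values, for mt-Tm, rested on 0.116, 0.0700, 0.0950, 0.112 and 0.161 reads per 1000 miRNA reads in the traditional control libraries and 0.173, 0.365, 0.161, 0.121 and 0.148 in the traditional DCHP libraries. The second DCHP library was the highest and the second control library the lowest, and the remaining values overlapped. For mt-Tq the same quantity was 1.58, 2.06, 3.27, 5.28 and 4.93 in control and 6.95, 4.35, 4.08, 3.44 and 1.51 in DCHP. Each group thus spanned more than the difference between their means of 3.42 and 4.07. The second control library, with the highest miRNA total of all libraries, was the highest traditional control in RPM for both mt-Tm (11.9) and mt-Tq (349).

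Single sequences gave no call either. Among the 20000 most abundant sequences of each method, 1 belonged to these tRNAs in PANDORA-seq and 26 in traditional libraries. The former was the 42 nt mt-Tq fragment (log2 0.82, SE 0.58, adjusted p = 0.896 by edgeR), and of the latter 17 were of mt-Tq (log2 0.04 to 0.84) and 9 of mt-Tv (log2 -0.68 to 0.98). None had an unadjusted p below 0.05, and 0.0100% and 0% of all sequences tested were called. In simulated data with 4-fold changes in 200 of 20000 sequences, the fit called 0% of these in the traditional comparison and 65.5% in PANDORA-seq. The changed sequences were drawn from all those tested, so these rates do not give the chance of calling such a change in these tRNAs. No conclusion is drawn from the lack of calls among single sequences.

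Of the fragment measures, 0 of 19 in PANDORA-seq and 1 of 25 in traditional libraries differed between DCHP and control, beside 1.49% and 1.22% of those of all 22 mitochondrial tRNAs. The one was the share of mt-Tv reads that end 1 to 3 bases before the last A. It was 91.4%, 84.8%, 82.9%, 83.7% and 79.6% in the traditional control libraries and 76.7%, 73.4%, 78.8%, 77.7% and 68.0% in the DCHP libraries. The groups did not overlap, although the lowest control (79.6%) and the highest DCHP library (78.8%) lay close. The means were 84.5% ± 4.35 and 74.9% ± 4.37 (SD, n = 5 each, two-sided exact permutation p = 0.00794, the smallest possible, adjusted p = 0.0434). The adjustment pooled the measures of all 22 mitochondrial tRNAs in all 4 comparisons. Of these, 25 of 71 and 26 of 70 were called between the methods, against 1 of 67 and 1 of 82 between exposures. The adjusted p therefore depends on the many calls between the methods, and an adjustment over the exposure comparisons alone was not made.

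Within that share, the end at base 71 held 49.6% ± 3.99 of mt-Tv reads in control and 40.0% ± 6.11 in DCHP libraries, and the end at base 70 held 32.1% ± 5.12 and 31.9% ± 8.16. These single ends were not tested. Reads of mt-Tv starting at base 1 were 4.25% ± 2.05 in control and 8.14% ± 3.36 in DCHP (exact permutation p = 0.0635, adjusted p = 0.209). The difference in near-tail ends was -8.64 percentage points with exact matches alone (exact permutation test, adjusted p = 0.0455) and -13.5 with reads of at least 18 nt (adjusted p = 0.03997). Without any 1 library the difference lay between -10.8 and -7.86 points. The call was lost each time (exact permutation p = 0.00794 or 0.0159, adjusted p = 0.0731 to 0.127). These adjusted p-values also depend on the measures of the method comparisons. Without traditional DCHP replicate 4 the share starting at base 1 was called instead (4.25% ± 2.05 and 8.86% ± 3.401, exact permutation p = 0.00794, adjusted p = 0.0459).

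In PANDORA-seq the same share of mt-Tv reads was 71.6%, 72.4%, 89.1% and 74.8% in control and 74.3%, 69.5%, 78.5%, 76.7% and 60.3% in DCHP libraries. These overlapped (77.0% ± 8.19 and 71.9% ± 7.29, exact permutation p = 0.421, adjusted p = 0.638). Whether the change differed between the methods was not tested.

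Beside that share, 2 measures had an unadjusted exact permutation p below 0.05 and did not pass the adjustment. The share of PANDORA-seq mt-Ti reads starting at base 1 was 0%, 4.76%, 8.00% and 14.3% in control and 9.09%, 20%, 13.9%, 28.6% and 33.3% in DCHP (exact permutation p = 0.0476, adjusted p = 0.170), on 8 to 36 reads a library. Traditional mt-Tq reads averaged 38.05 ± 0.4996 nt in control and 37.1 ± 0.625 nt in DCHP (exact permutation p = 0.0397, adjusted p = 0.151). Both pairs of groups overlapped.

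Among the genes outside these 6, the summed level of the tRNAs per miRNA read varied most like that of mt-Ta (Pearson's r = 0.931), the alanine tRNA of the mitochondria, followed by mt-Rnr1 (0.854) and Gm22958 (0.798). The measure was the correlation of deviations from the group mean over 19 libraries, among 502 genes. Each point shares its library and its miRNA denominator between the genes compared.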

How the data were processed

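The authors' files, 1 per library, list each distinct small RNA sequence with its read count, made with SPORTS1.1 at 1 mismatch per the study's methods, and the deposited counts are raw (genome mm10 per the submitters' processing notes). Groups came from the sample titles, because the treatment field names DCHP gavage for all 19 libraries. Sequences were matched, with at most 1 mismatch, to 2198 miRNA hairpins, rRNAs, 22 mitochondrial tRNAs with CCA, 4 of 408 nuclear tRNA loci and other small RNA genes (GENCODE M21, RefSeq), in that class order. Most nuclear tRNA loci and part of the large nuclear rRNAs were not used here, and a read shared by genes was split equally. Genes with at least 10 reads in at least 4 libraries were tested with edgeR 4.0.16 (R 4.3.3), with total miRNA reads as library size. DESeq2 1.42.0 was an alternative, as were other library sizes, filters, matching rules, a read length minimum and leaving out each library. Fits were tested on simulated data. Fragment measures were compared by exact permutation tests (scipy 1.17.1), adjusted over all 22 mitochondrial tRNAs and 4 comparisons. The planned adjustment over the 6 tRNAs alone was not used. All 6 tRNAs were named, with the sequence of highest mean RPM per method. The tRNAs and lists were chosen with earlier results of these data known. The main tests treated the libraries as unpaired. As an alternative, replicate numbers were taken as pairs between methods (replicate block, exact sign-flip test). Deviations of same-numbered libraries correlated between methods at 0.282 to 0.699 in 4 control pairs and 0.273 to 0.494 in 5 DCHP pairs. Between exposures these correlations were -0.346 to 0.224, so the numbers do not pair them. The 36 pairs of replicates differed by more than counting noise (chi-square per degree of freedom 103 to 2973).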

Additional observations from a re-analysis of the deposited data

Results flagged for a closer look

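In 90 groups of 4 or 5 libraries, 5 held 1 library far from the others by Dixon's test, of which chance flags about 1 in 20 groups. In the second traditional control library mt-Tf reached 3.51 RPM, against 0.161 to 0.764 in the other traditional controls. In the fourth traditional control library 30.8% of 26 mt-Tf reads started at base 1, against 0 to 6.01% in the others. For mt-Tq the first traditional DCHP library had 96.0% of reads starting at base 1, against 94.3% to 94.5%. The share of mt-Ti reads ending 1 to 3 bases before the last A was 15.7% in the second traditional DCHP library and 1.1% to 2.15% in the others. Reads of mt-Tl1 averaged 38.7 nt in the fifth PANDORA-seq DCHP library and 29.5 to 30.8 nt in the others.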

How the results depend on the processing

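Between the methods, the count of tRNAs called in control sperm, mt-Ti included, was 3. It rose to 5 with total reads, TMM, DESeq2's own size factors or the total of hairpins with mostly 20 to 24 nt reads. The last was in the opposite direction. With exact matches alone the count was 1. In DCHP-exposed sperm it was 0 with exact matches alone. All genes moved with the library size: the median in control sperm was 0.76, -1.65 (total reads), 5.44 (narrow hairpins) and -0.61 (TMM), with 514 higher and 390 lower, 136 and 635, 914 and 21, and 301 and 512 called, and in DCHP-exposed sperm 0.14, -2.41, 4.56 and -1.03, with 505 and 475, 118 and 808, 963 and 6, and 294 and 611. With narrow hairpins the log2 values in control sperm were 4.12 (mt-Tv), 4.04 (mt-Tl1), 2.72 (mt-Ti), 2.56 (mt-Tq) and 3.38 (mt-Tm), and in DCHP-exposed sperm 2.35 (mt-Tf), 4.19 (mt-Tv), 3.44 (mt-Tl1), 2.38 (mt-Ti), 2.35 (mt-Tq) and 2.68 (mt-Tm). With exact matches alone mt-Tv was 0.73, mt-Tl1 0.95 and mt-Tm 0.0128 in control sperm, and mt-Tv 0.82 and mt-Tl1 0.48 in DCHP-exposed sperm. The miRNA total then was 129067 to 298136 reads in PANDORA-seq, and the cause was not tested.

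For DCHP against control in traditional libraries, mt-Tf turned to -0.52 (total reads), -0.84 (TMM) and -0.89 (DESeq2's own factors), mt-Tv to -0.0587 and -0.11 and mt-Tq to -0.15 and -0.21 under the last 2, and mt-Tl1 to -0.0192 under DESeq2's own factors. The interaction turned for mt-Tv with narrow hairpins (0.0716), exact matches (0.0854) and the replicate block (0.0281), and for mt-Tq with total reads (0.0246) and exact matches (0.12). None of these passed a test. With genes of at least 1 read kept, 19 of 4098 genes (PANDORA-seq) and 17 of 4866 (traditional) were called between exposures, and 0 of the tRNAs.

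Leaving out 1 library gave 2 to 3 tRNAs called between methods in control sperm (mt-Ti included). In DCHP-exposed sperm it gave 4 to 5, beside 5 with all libraries, both counting mt-Tf, which had to be lower. Between exposures, in the interaction and for single sequences it gave 0 to 0. The call of mt-Tm in control sperm was lost without PANDORA-seq control replicate 1 or 4 or traditional control replicate 5 (edgeR adjusted p 0.120, 0.117 and 0.101), and that of mt-Tl1 in DCHP-exposed sperm without PANDORA-seq DCHP replicate 2 or 3 or traditional DCHP replicate 2. Between exposures, values ranged in PANDORA-seq from -0.19 to 0.47 (mt-Tv), -0.14 to 0.51 (mt-Tl1) and -0.00195 to 0.59 (mt-Tm), and in traditional libraries from -0.23 to 0.56 (mt-Tf), -0.16 to 0.49 (mt-Tv) and -0.0338 to 0.46 (mt-Tq). The interaction ranged from -0.44 to 0.27 (mt-Tv) and -0.24 to 0.31 (mt-Tq). Fragment measures called were 0 to 0 (PANDORA-seq exposure), 0 to 1 (traditional exposure), 0 to 0 (methods, control) and 0 to 5 (methods, DCHP). Paired by replicate number (replicate block), the exact sign-flip test called 0 fragment measures in the traditional exposure comparison and in both method comparisons, where its smallest p is 0.0625 or 0.125. The block lost the call of mt-Tl1 between methods in DCHP-exposed sperm. Numbers do not pair the exposures, where 1 of 4 and 1 of 5 libraries correlated best with its own number.

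Depth limits mt-Tf (9 PANDORA-seq reads) and the ends of mt-Ti, mt-Tl1 and mt-Tm in PANDORA-seq, at 8 to 49 reads a library.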

Other observations

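Of the other 16 mitochondrial tRNAs, 15 were tested between the methods per miRNA read. In control sperm 4 were higher in PANDORA-seq and 5 lower, beside 46.8% and 35.5% of all genes tested. In DCHP-exposed sperm 5 were higher and 6 lower, beside 41.4% and 38.9%. The highest log2 fold change was that of mt-Te in control sperm (3.72, adjusted p = 6.40e-11 by edgeR's quasi-likelihood test), and mt-Th was highest in DCHP-exposed sperm (2.73, adjusted p = 3.62e-05). Of the lower ones, mt-Tw and mt-Tl2 had too few PANDORA-seq reads to pass the filter on low counts within that method. They were tested only because of their traditional reads, and their place in both lower counts is a description. The counts changed with the library size. With total reads as library size 1 was called higher and 11 lower in control sperm, and 0 and 10 in DCHP-exposed sperm. With the total of hairpins with mostly 20 to 24 nt reads 14 were called higher and 0 lower in both, and with TMM 2 were higher and 8 lower in both. The log2 value of mt-Te in control sperm was then 1.28, 8.29 and 2.28 and that of mt-Th in DCHP-exposed sperm 0.22, 7.42 and 1.61. Between exposures 0 of the other tRNAs were called by edgeR, of 13 tested in PANDORA-seq and 15 in traditional libraries.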
